A study of Mus musculus with 4 samples.

Results

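The replication-dependent histone genes were examined in 4T1-T cells, which derive from 4T1, an established mouse mammary tumour line. Asns, the gene of the enzyme that makes asparagine, had been silenced in every sample. The members were all genes of the deposited count table whose symbol has the form Hist1h, Hist2h, Hist3h or Hist4h, which gave 68 of 23481 genes: 6 of histone H1, 18 of H2A, 19 of H2B, 12 of H3 and 13 of H4. Total RNA was sequenced from cells kept in DMEM lacking asparagine (2 libraries, called without A and without B here) and from cells kept in DMEM containing it (2 libraries, with A and with B). The labels do not say how Asns was silenced, whether the cells were 1 clone, how long they were grown, or whether each library had its own culture. The p-values therefore measure only how these samples spread, and that spread may be technical. Library without A stood apart from the other libraries in measures given below, so each result is given for all 4 libraries and for the libraries compared in pairs.

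Replication-dependent histone genes supply the core histones H2A, H2B, H3 and H4, which make up the nucleosome, and the linker histone H1, which binds the DNA between nucleosomes. They are transcribed mainly in S phase, when new DNA has to be packaged, and lie in gene clusters with a body of dedicated factors around them. Their messages have no introns and, in dividing cells, mostly no poly(A) tail: the transcript is cut behind a short stem-loop that the stem-loop binding protein Slbp holds, with the U7 small nuclear ribonucleoprotein positioning the cut. Some of these genes also give polyadenylated transcripts that run on past the stem-loop. Because many copies of the core histone genes are near-identical in sequence, their reads are often hard to assign to a single copy.

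In the mouse genome (mm10, the build of the counts, with GENCODE M21 gene models of the same assembly) 54 members lay in the Hist1 cluster at chr13:21715763-23934851, 10 in the Hist2 cluster at chr3:96219865-96270132, 3 in the Hist3 cluster at chr11:58948920-58956830, and Hist4h4 at chr6:136801553-136804415. Single-exon models made up 63 of the 68. A stem of 6 base pairs around a loop of 4 bases, the element that sets these messages apart from others, was found in the GENCODE transcripts of 44 members. The search took only perfect stems that open with GG and whose first strand ends in T, around a loop opening with TT. All shares of this element given here hold for that narrow form. Its forms are shown because they define the end of the message that the counts draw on. The stem is in capitals and the loop in lower case.
Form in 26 members of H1, H2A, H2B and H3: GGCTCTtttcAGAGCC
Form in 7 members, all H4: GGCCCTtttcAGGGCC
Form in 6 members, among them Hist1h3c and Hist1h3e: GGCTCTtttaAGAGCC
Form in Hist1h4i and Hist2h4: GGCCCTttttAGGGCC
Form in Hist1h4b and Hist1h4j: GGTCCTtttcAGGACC
Form in Hist2h2ac: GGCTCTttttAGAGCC
In the 42 members with a single-exon model and a stem-loop, it began 21 to 58 bases after the stop codon (median 31.5). Within the last 150 bases of a coding transcript it occurred in 24 of 21901 protein-coding genes (0.11%), and 22 of those 24 were members. The models of the other members with a stem-loop ran on further, as did that of Hist1h1e, which continued for 1153 bases past it. Absence of a match in the remaining members says only that these letters were not in the annotated transcript, which is short in some of them (381 bases in Hist1h2bl).

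Promoter sequences from RefSeq (GRCm38.p6, 300 bases around the gene start) were found for 62 members. The octamer ATTTGCAT was in 6 of 16 H2B and 7 of 18 H2A promoters and in none of those of H1, H3 or H4, against 1.754% of all 27025 promoters. The pentamer CCAAT was in every promoter of H1, H2A, H2B and H3 and in 3 of 12 of H4, against 37.9% of all promoters. TATAAA was in 35 of the 62 member promoters, against 14.2% of all. Each motif was searched on both strands and counted whether or not it overlapped another, and a match is a description of the sequence, not a site in use. Some H2A and H2B genes lie head to head, such as Hist1h2ae and Hist1h2bg. The same octamer can then be counted in both families, so the matches are not all separate elements. The octamer is the element the H2B genes are best known for, and 60 bases around it are shown for the H2B promoters that held it, on the strand of the gene, with the octamer in capitals.
Hist1h2ba, chr13:23934287-23934346, minus strand: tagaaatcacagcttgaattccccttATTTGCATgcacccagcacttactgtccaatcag
Hist1h2bb, chr13:23746618-23746677, plus strand: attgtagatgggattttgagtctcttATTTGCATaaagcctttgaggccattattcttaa
Hist1h2bg, chr13:23571315-23571374, plus strand: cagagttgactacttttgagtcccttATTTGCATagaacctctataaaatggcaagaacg
Hist1h2bk, chr13:22035765-22035824, plus strand: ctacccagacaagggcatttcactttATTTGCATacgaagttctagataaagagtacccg
Hist1h2bm, chr13:21721993-21722052, plus strand: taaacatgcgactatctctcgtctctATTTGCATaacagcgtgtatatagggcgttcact
Hist2h2bb, chr3:96269626-96269685, plus strand: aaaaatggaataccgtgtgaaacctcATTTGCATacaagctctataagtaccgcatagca

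Counts assigned to genes ranged from 17977552 to 30260582 a library, with the fewest in without A. Reads outside annotated genes were 56.6% of all reads in without A, against 46.3% to 49.3% in the other libraries. Rn45s, the ribosomal precursor RNA, stood at 34616 CPM (counts scaled to a common library size, with edgeR's TMM adjustment) in without A, 16786 in without B, 8868 in with A and 11907 in with B. Over genes, without A and without B differed by a chi-square of 45.3 per degree of freedom, and with A and with B by 5.26. None was thus a repeat deposit of another. Asns, the silenced gene, was at 75.0, 89.2, 103 and 101 CPM in without A, without B, with A and with B, which checks no label because it was silenced in all of them. Of the 12 epithelial markers 11 passed the low-count filter, with a summed level of 936 to 1245 CPM a library. The sums were 7.40 to 9.21 for leukocyte, 2.59 to 4.52 for endothelial and 19.8 to 43.7 for fibroblast markers. In these lists 2 of 12 leukocyte, 4 of 8 endothelial and 2 of 9 fibroblast markers in the counts passed the filter. Cd3e was the only leukocyte marker at 0 in every library, and no endothelial marker was. Kdr, Vwf and Emcn, chosen after their values were seen, were at 0 in both libraries without asparagine.

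Of the 68 histone genes 56 passed the filter on low counts, with 106 to 13781 reads over the 4 libraries. Of the 12 that did not, Hist1h2ap, Hist1h2bq, Hist1h2br, Hist2h2aa1 and Hist2h2aa2 were at 0 in every library, and at most 11.3% of the 50-base stretches of their transcripts were found in no other gene. A count of 0 in such a copy says nothing about its transcription. The other 7 had 2 to 12 reads in all; among them were Hist1h1t and Hist1h2aa, known from testis, and Hist1h1a. Hist1h2ba, the testis H2B, was the exception, with 7.63, 6.13, 6.60 and 6.31 CPM, although 38.2% of its 50-base stretches were shared with Hist1h2bj. Of the tested members, 27 had under 50% of such stretches to themselves, so many of their reads may fit more than 1 copy. The family sums below do not depend on which copy of the family such a read was given to. Where reads fitting several copies were left uncounted, the sums miss them too.

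Histone reads were 0.127%, 0.0930%, 0.0843% and 0.102% of the gene counts in without A, without B, with A and with B. In CPM the 68 genes summed to 1245 in without A, 939 in without B, 846 in with A and 1025 in with B. Library without A was the highest, but without B lay between the libraries with asparagine, so the groups overlapped. The group means were 1092 ± 216 CPM without and 935 ± 127 CPM with asparagine (SD, n = 2 each), a ratio of 1.17 that was smaller than the spread between replicates. An exact test of 2 against 2 libraries cannot go below a two-sided p of 0.333, so none was made on the sums. In bulk RNA, fewer cells in S phase and less histone RNA per cell cannot be told apart.

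By family, the ratio of mean CPM without over with asparagine was 1.21 for H1, 1.10 for H2A, 1.10 for H2B, 1.25 for H3 and 1.29 for H4. Library without A was the highest and with A the lowest in each of the 5 families, while without B was below with B in each of them. Of all histone reads, H2B gave 32.2% in without A and 35.2% to 36.5% in the other libraries. H1 gave 29.8% in without A and 27.1% to 28.3% in the others.

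**Figure D1:**
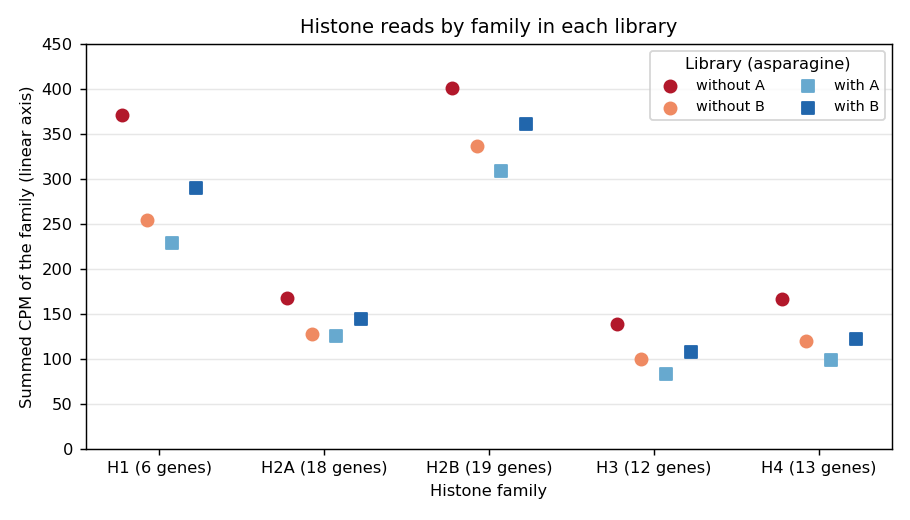
Summed CPM (linear axis from 0) of the histone genes of each family in each library, circles for cells without and squares for cells with asparagine. In all 5 families the point for without A is the highest, and without B lies between with A and with B, as in H1, at 371, 255, 229 and 290 CPM in the order of the legend.

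In the comparison of the groups, edgeR's quasi-likelihood test called none of the 56 tested histone genes higher or lower at an adjusted p under 0.05, against 0.771% of all 12843 tested genes called higher and 1.07% called lower. The DESeq2 Wald test and limma-voom also called none. At an unadjusted p under 0.05 there were 5 members by edgeR and 4 by either of the other tools, which is 5 of 56 against 18.1% of all tested genes. The fold changes leaned 1 way: 49 members were above 0 and 7 below, with a median log2 fold change (without minus with) of 0.20, against 0.01 over all tested genes. Both libraries without asparagine lay above both with it in 12 members, and below in 1 (Hist2h2be), while 26.1% of all tested genes had the first pattern and 26.4% the second. A share of 12 in 56 is thus no larger than the background. Of the 12, 6 were H4 genes, 2 H3, 2 H2A, 2 H2B and none H1.

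Among the linker histones, Hist1h1e (H1.4, chr13:23620629-23622558, 1 exon, minus strand) had the most reads of the 68 members. It stood at 190 and 132 CPM without and 120 and 149 CPM with asparagine, so the groups overlapped, and its log2 fold change was 0.25 ± 0.19 (SE, edgeR adjusted p = 0.504). Hist1h1b (H1.5) had 98.2 and 64.8 CPM without and 57.1 and 74.3 CPM with asparagine, again with without A highest and without B inside the range of the other group. Hist1h1c (H1.2) showed the same order at 46.9, 35.3, 31.1 and 40.4 CPM. The log2 fold changes of the 4 tested H1 genes lay between 0.20 and 0.32, the narrowest range of any family. H1 was also the family with the fewest tested genes, and a range widens as genes are added.

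For H2A, 12 of 13 tested genes were above 0, with a median log2 fold change of 0.12. Hist1h2ak, the most abundant, had 41.1 and 33.0 CPM without and 33.2 and 37.3 CPM with asparagine. Hist2h2ac stood at 35.9 and 25.4 CPM without and at 25.7 and 29.7 CPM with it. In both genes without B was the lowest library. Hist1h2ai had 13.8 and 11.1 CPM against 10.4 and 10.2 CPM, without overlap, and a log2 fold change of 0.27 ± 0.16 (edgeR adjusted p = 0.399). Hist1h2ae was the member with the smallest fold change of all, -0.22 ± 0.22, with 5.61 and 4.02 CPM without and 5.30 and 5.87 CPM with asparagine. Each of the 18 H2A genes had a gene model on the other strand over its exons, and the use of strand in the counting is not given in the sources used here.

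H2B had the lowest median log2 fold change of the families, 0.10, with 12 of 15 tested genes above 0. Hist1h2bl was nearly level at 61.7 and 58.1 CPM without and 51.8 and 59.1 CPM with asparagine. Hist1h2bm had 67.5 and 45.3 CPM without and 42.2 and 49.9 CPM with it, with only without A above the rest. Hist1h2be stood at 50.3 and 43.2 CPM against 39.2 and 49.7 CPM. Its annotated span overlaps that of Hist1h1e on the same strand, and reads over both may be counted for neither. Of the genes whose octamer promoters are shown above, none was called: Hist1h2bb and Hist1h2bk had log2 fold changes of -0.016 and -0.06, Hist1h2ba 0.09, Hist1h2bg 0.25, Hist1h2bm 0.29 and Hist2h2bb 0.88.

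Hist2h2bb (chr3:96269752-96270132, 1 exon, plus strand) stood apart within H2B. It had 253 reads in without A, 83 in without B, 116 in with A and 135 in with B, or 13.8, 3.71, 4.88 and 4.50 CPM. Only without A was high, and without B was the lowest of the 4. The log2 fold change of 0.88 ± 0.52 (edgeR adjusted p = 0.407) rests on that library, and without it the value was -0.33. All 50-base stretches of this gene also lie in Gm20628, a gene model on the opposite strand. Another model, Gm42743, overlaps its exon on the same strand. Both the strand and the source gene of the extra reads are thus unknown.

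All 12 H3 genes were above 0, with a median log2 fold change of 0.30. Hist2h3c1 had 35.4 and 29.0 CPM without and 22.02 and 25.4 CPM with asparagine, so the groups did not overlap, and a log2 fold change of 0.44 ± 0.14 (edgeR adjusted p = 0.188). All its 50-base stretches also occur in the overlapping model Gm20634. Its twin Hist2h3c2 had 20.6 and 14.5 CPM against 11.9 and 18.6 CPM, with overlap. Hist1h3e stood at 14.9 and 10.9 CPM against 8.91 and 12.3 CPM. Of the genes chosen after their values were seen, Hist1h3b had 7.63, 3.89, 3.36 and 4.30 CPM and Hist1h3c 7.58, 4.25, 3.11 and 4.54 CPM, both high in without A alone.

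In H4, whose genes all encode the same protein, 9 of 12 were above 0 and the median log2 fold change was 0.36. Hist1h4d gave most of the family's reads, with 111 and 76.0 CPM without and 62.9 and 77.9 CPM with asparagine. Without B lay just under with B, so the groups overlapped, and the log2 fold change was 0.41 ± 0.19 (edgeR adjusted p = 0.326). Per kilobase of RefSeq gene length it was the highest member, at 204 CPM per kilobase in the mean of all libraries, followed by Hist1h1e at 189, Hist1h2bl at 122 and Hist1h2bm at 106. The GENCODE model of Hist1h4d runs on for 770 bases past the stem-loop, and if the counted model did so too this level is too high.

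The other H4 genes were low and differed among themselves. Hist4h4, the lone gene of its cluster, had the largest fold change of all members, with 3.00 and 2.33 CPM without and 1.43 and 1.27 CPM with asparagine. The groups did not overlap, and without B stayed above both libraries with asparagine. The log2 fold change was 0.98 ± 0.27 (edgeR adjusted p = 0.144, the smallest of the members), on 34 to 55 reads a library. The GENCODE model of Hist4h4 runs on for 2445 bases past the stem-loop, and where in the gene these reads lie is not known. Hist2h4 had 9.43 and 7.65 CPM against 5.72 and 6.81 CPM, also without overlap (0.44 ± 0.19, edgeR adjusted p = 0.274). Hist1h4c had 7.74 and 7.60 CPM against 7.19 and 9.21 CPM, and Hist1h4b 3.11 and 2.59 CPM against 2.31 and 3.84 CPM, with fold changes of -0.10 and -0.13. Hist1h4i, and Hist3h2a of the H2A family, are named because their unadjusted p was under 0.05. Hist1h4i had 8.99 and 6.35 CPM against 3.87 and 5.77 CPM. Hist3h2a had 8.12 and 7.201 CPM against 4.88 and 5.74 CPM. The GENCODE model of Hist3h2a runs on for 1643 bases past the stem-loop and overlaps Trim17 on the same strand. On the log2 scale the fold changes of Hist1h4i and Hist3h2a were 0.65 ± 0.26 and 0.52 ± 0.18, with adjusted p of 0.253 and 0.199 by edgeR.

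**Figure D2:**
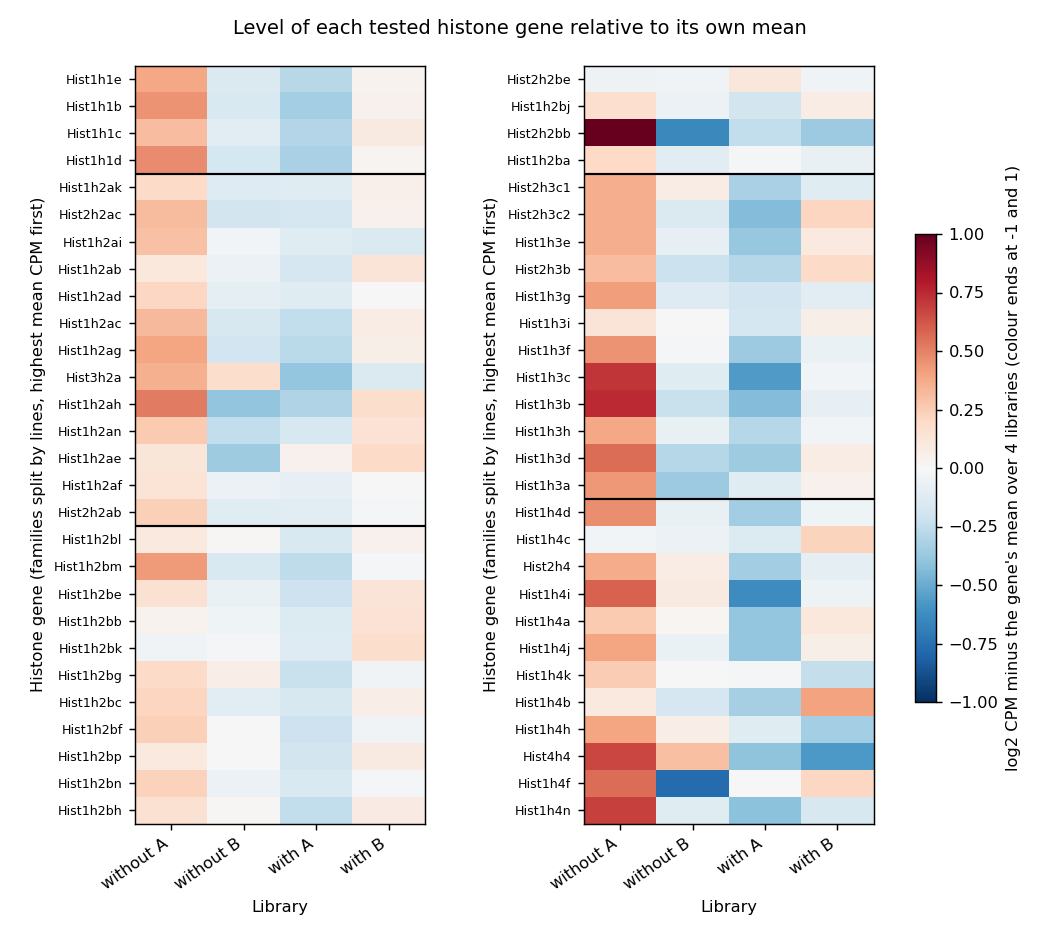
Log2 CPM of each of the 56 tested histone genes minus its own mean over the 4 libraries, red above and blue below the mean, 1 row a gene and 1 column a library. The column for without A is red in nearly every row and holds the highest value of 49 genes, while the column for with A is mostly blue and holds the lowest of 41.

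Ranked within each gene, without A was the highest library in 49 of 56 members, with B in 6, with A in 1 and without B in none. Over all tested genes without A was the highest in 36.9%. With A was the lowest library in 41 members, against 24.0% of all tested genes, and without B was the lowest in 10. The extremes were thus most often without A and with A, while without B and with B lay between them in most members.

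Pairs of single libraries show the same order, as a description with no test. Without A against without B, the same treatment, had a median log2 difference of 0.35 over the members and 54 of 56 above 0. More than 1.5-fold, 10 members were higher (7.35% of all tested genes) and none lower (4.94% of all). Without A against with A had a median of 0.53, with 26 members higher (10.7% of all) and none lower (7.99%). Without A against with B had a median of 0.27, with 7 higher (10.7%) and none lower (8.6%). The difference between both libraries without asparagine was therefore larger than that between without A and with B.

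The pairs that leave out without A were smaller and went both ways. Without B against with A had a median of 0.13, with 45 of 56 members above 0, 2 higher past 1.5-fold (4.35% of all) and 1 lower (5.4%). Without B against with B had a median of -0.13, with 12 of 56 above 0, 1 higher (4.1%) and 1 lower (4.87%). With A against with B, the same treatment, had a median of -0.25, with 7 of 56 above 0, none higher (2.09%) and 2 lower (1.62%). Over all tested genes the medians of these pairs were near 0, as the plot of pair medians shows.

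The sums of reads give the same differences with their counting error, which is the only error these intervals cover. Total histone CPM in without A was 1.33 times that in without B (95% interval 1.30 to 1.35). It was 1.47 times that in with A (1.444 to 1.50025) and 1.21 times that in with B (1.19 to 1.24). Without B had 1.11 times the histone CPM of with A (1.09 to 1.13) and 0.916 times that of with B (0.900 to 0.933). Each pair thus differed by more than the counting error, including the pairs of the same treatment, where with A had 0.825 times the level of with B (0.811 to 0.840).

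The families differed in how far without A lay above the other libraries. Against with A, the median log2 difference was 0.72 in H1, 0.71 in H3 and 0.67 in H4, but 0.41 in H2A and 0.36 in H2B. Against without B, it was 0.56 in H1, 0.51 in H3, 0.34 in H4, 0.35 in H2A and 0.22 in H2B. More than 1.5-fold above with A were 4 of 4 tested H1 genes, 10 of 12 H3 and 7 of 12 H4 genes, and 3 of 13 H2A and 2 of 15 H2B genes. Hist2h2bb had the largest single ratio, 3.71 times without B (95% interval 2.89 to 4.82). The 17 tested members whose GENCODE models end within 150 bases of the stem-loop and the 20 whose models run on further had median log2 fold changes between the groups of 0.12 and 0.29. These sets differ in their families as well.

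**Figure D3:**
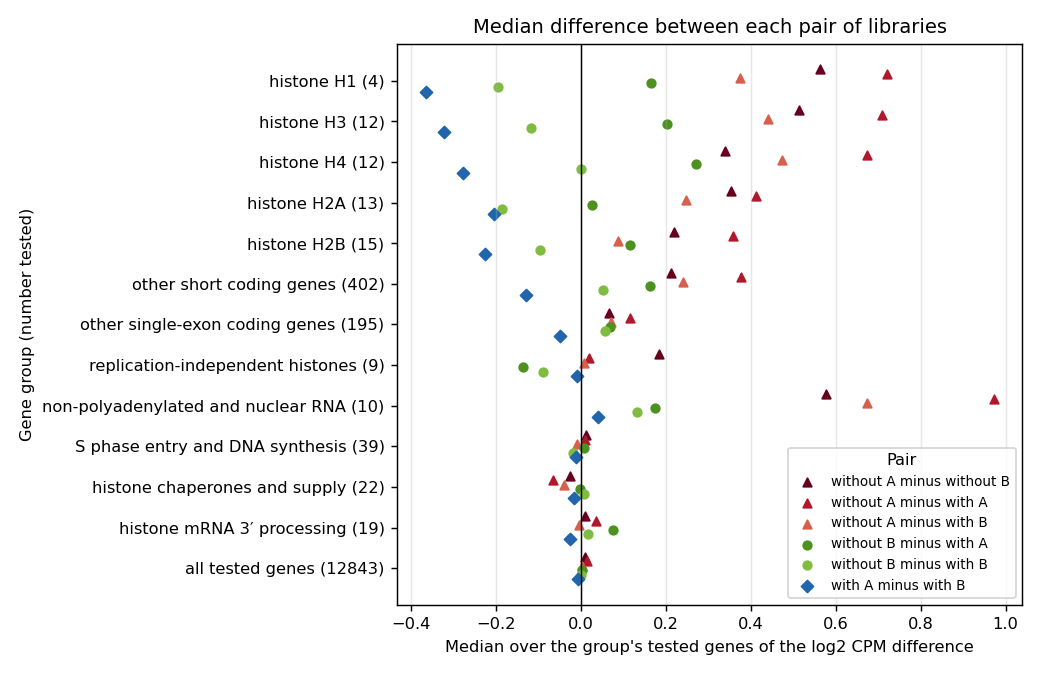
Median log2 CPM difference between each pair of libraries (horizontal axis) over the tested genes of each histone family and of other gene groups, with the number tested in brackets. Triangles are the 3 pairs with without A, which lie to the right of 0 in all histone families, circles are without B against each library with asparagine, and the diamond is with A minus with B.

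With each library without asparagine set alone against both with it, the calls and the fold changes differed. The lone library was assumed to vary like the others, since it has no replicate. For without A alone, edgeR called 25 of 56 members higher and none lower, against 18.9% and 21.6% of all tested genes. The 25 were 4 of 4 tested H1 genes, 8 of 12 H3, 4 of 12 H4, 5 of 13 H2A and 4 of 15 H2B, with log2 fold changes of 0.31 to 1.56. For without B alone, edgeR called no member higher or lower, against 6.94% and 8.7% of all tested genes; 4 members had an unadjusted p under 0.05. The median over members was 0.39 for without A and -0.03 for without B, where 25 of 56 were above 0. Hist1h4d had 0.65 ± 0.08 with without A and 0.10 ± 0.09 with without B, and Hist1h1e 0.49 ± 0.07 and -0.036.

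**Figure D4:**
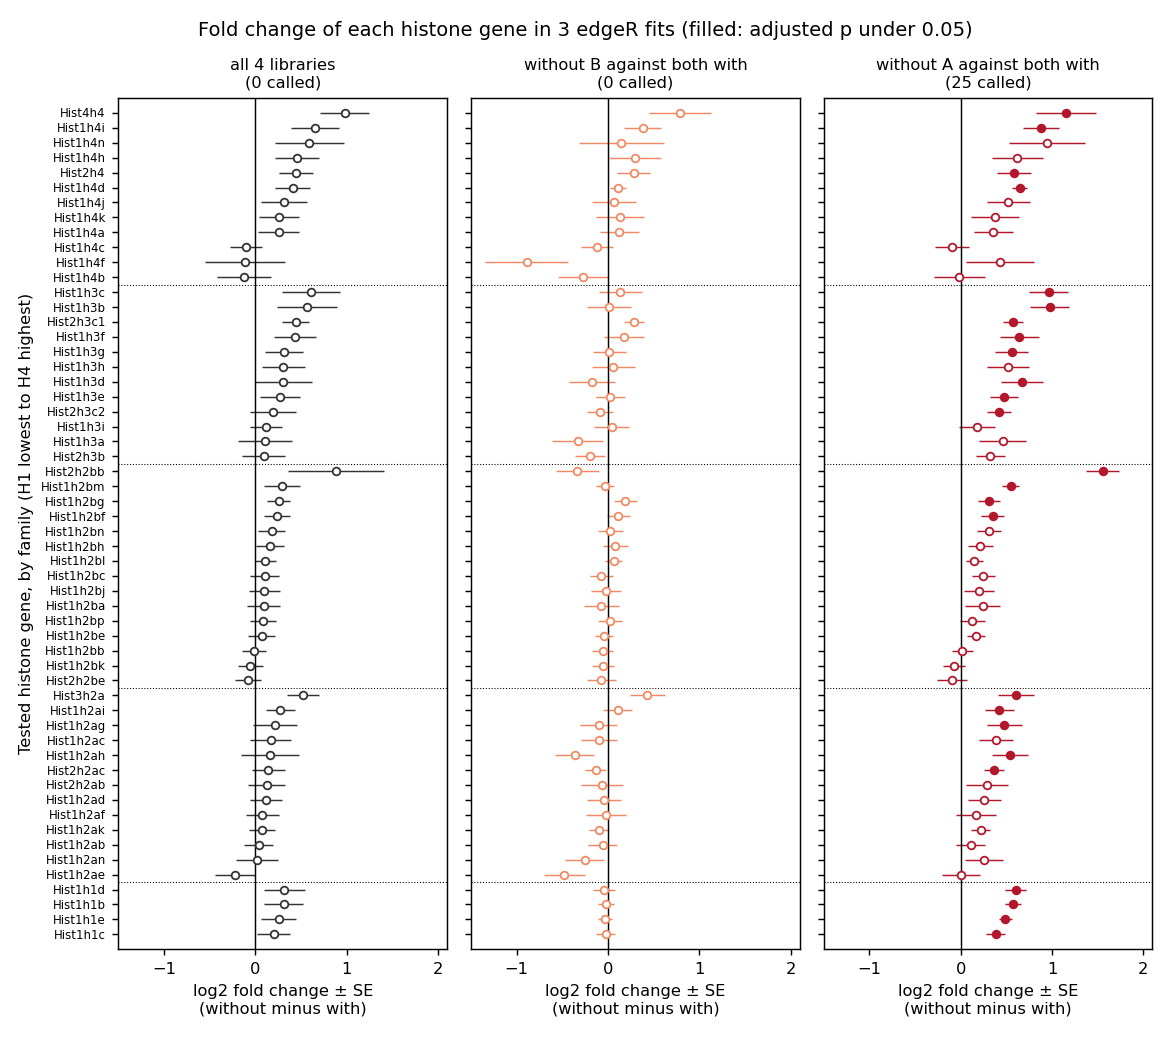
Log2 fold change (without minus with asparagine, ± SE) of the 56 tested histone genes in 3 edgeR fits, with all 4 libraries, with only without B, and with only without A in the group lacking asparagine. Filled points have an adjusted p under 0.05: there are 25 in the fit with without A alone and none in the other fits.

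Several measures other than histone genes moved with library without A. Of 10 tested non-polyadenylated or nuclear RNAs, none was called, 10 of 10 were above 0, and the median log2 fold change was 0.49. Without A against without B, the median difference of this list was 0.58, with 9 of 10 above 0. Its member with the smallest p was Rn45s. Others, chosen after their values were seen, were Rpph1, the RNA of RNase P, at 9.70, 0.716, 0.841 and 0.701 CPM, and Kcnq1ot1, a nuclear antisense RNA, at 1328, 467, 600 and 452 CPM. Both were high in without A alone, like Hist2h2bb. The part of such RNA in the histone difference was not tested.

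Gene length moved with the libraries too. The 402 tested coding genes other than histones whose models are shorter than 1000 bases had median log2 differences of 0.21 for without A against without B and 0.38 against with A. They also had -0.13 for with A against with B, where the histones had -0.25. The 195 other single-exon coding genes had 0.06, 0.11 and -0.05 in the same pairs. For without A against with B the short genes had 0.24, where the histones had 0.27. For without B against with A the short genes had 0.16, where the histones had 0.13. The single-exon genes had 0.07 in both of these pairs. In these medians without A was above and with A below each of the other libraries, as for the histones. Short genes differed from the histones for without B against with B, at 0.05 where the histones had -0.13. The part of length in the histone difference was not tested.

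In the lists of genes that act with the histone genes, no gene passed the test between the groups. Of 39 tested genes of S phase entry and DNA synthesis, edgeR called none, 19 were above 0 and the median log2 fold change was -0.01. Gins2, a subunit of the replicative helicase and the member with the smallest p, was at 30.6 and 52.1 CPM without and 61.4 and 62.1 CPM with asparagine, with the low value in without A (edgeR adjusted p = 0.247). Of 18 mitosis genes none was called, 6 were above 0 and the median was -0.05. Ccnb2, cyclin B2, was at 88.1 and 78.8 CPM against 109 and 110 CPM (edgeR adjusted p = 0.143). With without A alone against both libraries with asparagine, edgeR called 6 of the 39 S phase genes higher and 6 lower, where 18.9% and 21.6% of all tested genes were called. With without B alone it called none of them. The share of cells in S phase was not measured.

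For the cutting and decay of histone messages, 19 genes were tested, none was called, 12 were above 0 and the median was 0.04. Upf1, a helicase of histone mRNA decay, had 90.4 and 79.9 CPM without and 69.7 and 69.6 CPM with asparagine (log2 fold change 0.29 ± 0.11, edgeR adjusted p = 0.233). Slbp, the stem-loop binding protein, chosen after its values were seen, had 129, 99.4, 106 and 100 CPM, with the high value in without A. The median of the list did not share this, and its genes went both ways. For without A against without B the median log2 difference was 0.01, with 10 of 19 genes above 0 and a range of -0.85 to 0.59. Of 19 genes of the histone locus body and histone transcription none was called and the median was -0.0018, with 9 above 0. Casp8ap2, a component of that body, was at 308 and 350 CPM without and 423 and 386 CPM with asparagine (edgeR adjusted p = 0.238). Of 22 histone chaperones and supply genes none was called, 8 were above 0 and the median was -0.04. Hjurp, the chaperone of the centromeric H3, was at 32.2 and 28.2 CPM against 25.9 and 24.8 CPM (edgeR adjusted p = 0.327).

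The replication-independent histones, which are expressed outside S phase from genes with introns or from polyadenylated messages, gave 9 tested genes, none called, with 4 above 0 and a median of -0.07. H1f0, the linker histone of resting and differentiated cells, had 473 and 436 CPM without and 644 and 687 CPM with asparagine. The groups did not overlap, and without A lay closer to without B than to either library with asparagine, a pattern that none of the replication-dependent H1 genes had. Its log2 fold change was -0.55, at an edgeR adjusted p of 0.0614 that missed the threshold. Of the marker lists, edgeR called 4 of 11 tested epithelial genes higher, against 0.771% of all tested genes. Krt14 with a log2 fold change of 2.73 and Esrp1 with 1.37 changed the most of those called. The 11 ranged from -0.13 to 2.73, with 9 above 0. Only 2 fibroblast markers were tested: Pdgfra was called lower, at -1.03, and Postn was not called, at 2.45 (edgeR adjusted p = 0.0609). Cd68 and Tek, the leukocyte and endothelial markers with the smallest p, were not called (edgeR adjusted p = 0.471 and 0.569).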

How the data were processed

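Per the labels' protocols, total RNA from 4 samples was extracted with the Qiagen kit for RNA and turned into libraries by Nugen Ovation V2 amplification. The deposited values are raw whole-number read counts for each symbol, made by the authors with Bowtie2 and HTSeq on mm10, per the submitters' processing notes. The sources used here give no versions, annotation, strand setting or read length. The 5 HTSeq summary rows, 60.1% to 70.0% of the reads, stayed out of library sizes and tests. Amplification from total RNA can bring unprocessed RNA and messages without a poly(A) tail into the counts, which no value here measures for the histone reads.

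From the deposited counts, 12843 genes passed filterByExpr (minimum count 10, minimum total 15). TMM scaling was followed by the test of edgeR 4.0.16 (the quasi-likelihood F test, in R 4.3.3) over all genes, with Benjamini-Hochberg adjustment and a threshold of 0.05. The SE is the fold change divided by the square root of F, and the common biological coefficient of variation was 11.2%. Single libraries were compared as log2 CPM with a prior count of 2. DESeq2 1.42.0, limma-voom (limma 3.58.1), other scalings and filters, the letter as a block and each library left out were alternatives. The script was tested on simulated data.

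Members and gene lists were chosen with earlier results of these data known. Named are, in each family, the 3 members with the highest mean CPM, the 2 members of largest and the 2 of smallest fold change, and in each list up to 2 called genes or the gene with the smallest p. Any other gene named with values was chosen after its values were seen. Sequences come from RefSeq and GENCODE.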

Additional observations from a re-analysis of the deposited data

How the results depend on the processing

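No member was called under the other scalings, limma-voom, the DESeq2 Wald test, the filter of 5 CPM in 2 libraries, or with Rn45s or the 10 most abundant genes left out. The count of all genes called went from 99 higher and 138 lower to 193 and 271 with DESeq2 and to 615 and 719 with no low-count filter. That last setting tested 19828 genes, 63 of them members, and called 5 members higher. The median over members stayed between 0.16 and 0.25 in these settings. With the letter as a replicate block, 344 genes were called higher and 472 lower, and no member. The labels do not say whether a letter marks a shared culture or day, so the letters were not taken as pairs. The deviations of same-lettered libraries correlated at 0.123 over 12843 genes and -0.05 over the members. With each library left out in turn, genes called higher ranged from 24 to 2502, genes called lower from 24 to 2861, members called higher from 0 to 25, and the members' median from -0.027 to 0.39. The highest values came without without B, and the lowest median without without A. Without with A the members' median was 0.06, and without with B it was 0.34. Over all 56 tested members, those above 0 went from 49 to 25 without without A, 39 without with A and 54 without with B, so many turned sign, Hist1h2bb and Hist1h2bk among them. For the members named by the rule whose sign turned, the fold changes ranged from -0.036 to 0.49 for Hist1h1e, -0.026 to 0.57 for Hist1h1b, -0.027 to 0.40 for Hist1h1c, -0.10 to 0.22 for Hist1h2ak, -0.13 to 0.36 for Hist2h2ac, -0.030 to 0.55 for Hist1h2bm, -0.090 to 0.25 for Hist1h2be, -0.088 to 0.56 for Hist2h3c2, -0.33 to 1.56 for Hist2h2bb, -0.27 to 0.090 for Hist1h4c and -0.43 to 0.29 for Hist1h4b. Esrp1 and Pdgfra were no longer called when with A or with B was left out. The cause of these shifts was not tested. With 2 libraries a group, depth does not set the limit for abundant members. For Hist4h4, with 34 to 55 reads a library, the ratio of without A to without B has a 95% counting interval of 0.866 to 1.92.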
